A study of Homo sapiens with 20 samples.

Results

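The 6 genes described here make up the ISG15 conjugation system: the modifier *ISG15*, its activating enzyme *UBA7*, its conjugating enzyme *UBE2L6*, the HECT ligases *HERC5* and *HERC6*, and the protease *USP18*. They were chosen by symbol, and each matched 1 of the 58233 Ensembl gene identifiers in the count tables. The RNA-seq held 20 libraries of 4 human lung cancer cell lines in 10 conditions, with 2 libraries per condition that differed in the sgRNA. A549 (lung adenocarcinoma) cells carried sgRNA 1 or 2, which targeted *GFP* (control) or *ADAR*, and received IFN-β at 10 ng/mL or its vehicle over 24 h. HCC366 (lung adenosquamous carcinoma), NCI-H1650 (lung adenocarcinoma) and NCI-H196 (variant small cell lung cancer) were untreated and had the same kinds of sgRNA, delivered with Cas9 by lentivirus 5 days before the RNA was taken. These last 3 lines are the ADAR1-dependent cell lines among the 4 sequenced, and the study describes further dependent lines that are not in these data. *ADAR* encodes ADAR1, which edits adenosine to inosine in double-stranded RNA. Cas9 was present in control and *ADAR* KO cells alike. Since the 2 libraries of a condition are 2 sgRNAs, differences between sgRNAs and between the cell populations that carry them cannot be told apart in the p-values. No repeated culture of the same sgRNA under the same condition is named. The comparisons ask how much of the system each line expressed without added interferon, and what IFN-β and *ADAR* deletion did to it.

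ISG15 is a small protein made of ubiquitin-like domains, and type I interferon is the classical inducer of its gene. It is attached to other proteins by an enzyme cascade that mirrors that of ubiquitin: UBA7 activates it, UBE2L6 carries it, and HERC5 is the main human ligase that transfers it to substrates, many of them newly made proteins. HERC6 is a close relative of HERC5, and in the mouse it performs this ligase step. USP18 removes ISG15 from its substrates and, apart from that, binds the interferon receptor chain IFNAR2 and dampens type I interferon signalling, so it acts as a negative feedback regulator. ISG15 stabilizes USP18 in human cells.

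In the GENCODE annotation mapped to GRCh37, *ISG15* (ENSG00000187608) spans positions 936518 to 949920 of chromosome 1 on the plus strand, and its canonical transcript has 2 exons. *UBA7* (ENSG00000182179) lies on the minus strand of chromosome 3, from 49842642 to 49851386, with 24 exons. *UBE2L6* (ENSG00000156587) lies on the minus strand of chromosome 11, from 57319129 to 57335757, with 4 exons. *HERC6* (ENSG00000138642) runs from 89299891 to 89364249 and *HERC5* (ENSG00000138646) from 89378270 to 89427314 on the plus strand of chromosome 4, so that 14020 bases separate these neighbours, each with 23 exons. *USP18* (ENSG00000184979) lies on the plus strand of chromosome 22, from 18632885 to 18660164, with 11 exons. *USP41*, a near-identical copy of *USP18*, had 0 to 27 reads per library, and reads shared by the copies could have been lost from either gene.

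RefSeq promoter windows of GRCh38.p14 (250 bases before to 50 after the start of transcription) were matched for 4 of the 6 genes: *ISG15*, *UBE2L6*, *HERC5* and *HERC6*. They were searched on both strands for the core of the interferon-stimulated response element, GAAANNGAAA, which the factor complex ISGF3 binds, and this motif occurred in 3.57% of 35116 such windows of all genes. *ISG15* held 2 matches, which overlapped, and *HERC5* held 3, of which 2 overlapped. *UBE2L6* and *HERC6* held no match to these letters in their windows. The stretch from 150 to 51 bases before the start is shown for *ISG15* (chr1:1013347-1013446), *HERC5* (chr4:88456969-88457068) and its neighbour *HERC6* (chr4:88378702-88378801), all on the plus strand. The part of these matches in the response to IFN-β was not tested. Matches are in capitals, and in *HERC5* they read on the minus strand.
ISG15: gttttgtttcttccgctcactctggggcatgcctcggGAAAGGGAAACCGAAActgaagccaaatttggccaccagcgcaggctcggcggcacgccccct
HERC5: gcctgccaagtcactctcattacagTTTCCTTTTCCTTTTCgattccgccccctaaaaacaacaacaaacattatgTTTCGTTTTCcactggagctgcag
HERC6: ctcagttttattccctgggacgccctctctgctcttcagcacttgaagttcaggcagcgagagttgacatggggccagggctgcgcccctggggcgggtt

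The reads on genes numbered 62679 to 19520189 per library, and the 2 extremes of data quality bear on several results. NCI-H196 GFP sg2 had 62679 reads in all and 50 on the 6 genes, so its values carry a large counting error. In HCC366 *ADAR* sg2, 85.6% of alignments were not unique and went uncounted, against 22.5% to 59.1% elsewhere. Epithelial markers were above 1 CPM for 4 of 5 genes in A549 and HCC366, for 5 of 5 in NCI-H1650 and for 2 of 5 in NCI-H196. The 5 neuroendocrine markers of small cell lung cancer reached at most 1.62 CPM in NCI-H196, so these defining markers were near absent from the line with that label. Low label markers were not particular to NCI-H196. The 4 adenocarcinoma markers reached at most 2.10 CPM in A549 and 2.30 CPM in NCI-H1650. In HCC366, labelled adenosquamous, they reached 5.70 CPM and the 3 squamous markers 4.08 CPM, against 69.2 CPM for the squamous markers in NCI-H1650. Of 3 endothelial and fibroblast markers, the collagens *COL1A1* and *COL3A1* stood apart in NCI-H196, at 1808 to 2598 CPM and 112 to 167 CPM, against at most 157 and 18.95 CPM in the other lines, and *VWF* stayed at or under 2.28 CPM in every library. The part of these markers in the results was not tested. The 5 immune markers stayed at or under 2.43 CPM in every library. *ADAR* mRNA checked the labels. It was lower in *ADAR* KO than in *GFP* libraries of every line, with log2 fold changes of −0.84 (adjusted p = 0.208) in HCC366, −1.29 (adjusted p = 6.63e-14) in NCI-H1650, −0.41 (adjusted p = 0.00165) in NCI-H196, −1.08 (adjusted p = 9.98e-05) in A549 with vehicle and −0.60 (adjusted p = 0.00148) in A549 with IFN-β. Transcripts that carry a Cas9-made mutation are still counted, so the mRNA need not fall as far as the protein.

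IFN-β raised all 6 genes in A549 *GFP* cells, from vehicle levels that were low for all but *UBE2L6*. With vehicle, *UBA7* had 0 reads and *HERC5* 16 reads over the *GFP* group, and the other members were clearly detected. In that comparison 4.39% of all genes tested were called higher (edgeR's quasi-likelihood test, Benjamini-Hochberg adjusted p under 0.05). Levels are given as CPM, the read count relative to the TMM-scaled library size within the cell line, in the order sg1 and sg2. *ISG15* was at 4.35 and 4.91 CPM with vehicle and at 546 and 826 CPM with IFN-β, a log2 fold change of 7.19 ± 0.18 (SE; adjusted p = 5.29e-24). *UBA7*, the activating enzyme, had 0 reads in both vehicle libraries and 33.8 and 36.9 CPM after IFN-β. Set against a floor of 3 reads over the vehicle group (0.133 CPM), *UBA7* was at least 267-fold higher with IFN-β. The conjugating enzyme *UBE2L6* stood apart as the one member with a sizeable starting level, 22.6 and 24.4 CPM, and it reached 475 and 446 CPM (log2 fold change 4.29 ± 0.12, adjusted p = 3.43e-23).

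The neighbouring ligases both rose from low levels and to different degrees. *HERC5* went from 1.06 and 0.531 CPM, which were 8 reads in each library, to 85.9 and 89.7 CPM, a log2 fold change of 6.93 ± 0.26 (adjusted p = 1.17e-19). *HERC6* went from 3.03 and 3.05 CPM to 86.3 and 81.3 CPM, a log2 fold change of 4.78 ± 0.17 (adjusted p = 1.89e-20). Their levels after IFN-β were thus alike in CPM, and the larger fold of *HERC5* came with its lower start. The protease *USP18* rose from 6.20 and 7.37 CPM to 147 and 178 CPM (log2 fold change 4.55 ± 0.15, adjusted p = 1.92e-21). For every member the vehicle and IFN-β libraries lay far apart, and these 6 calls held under every alternative tried.

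**Figure D1:**
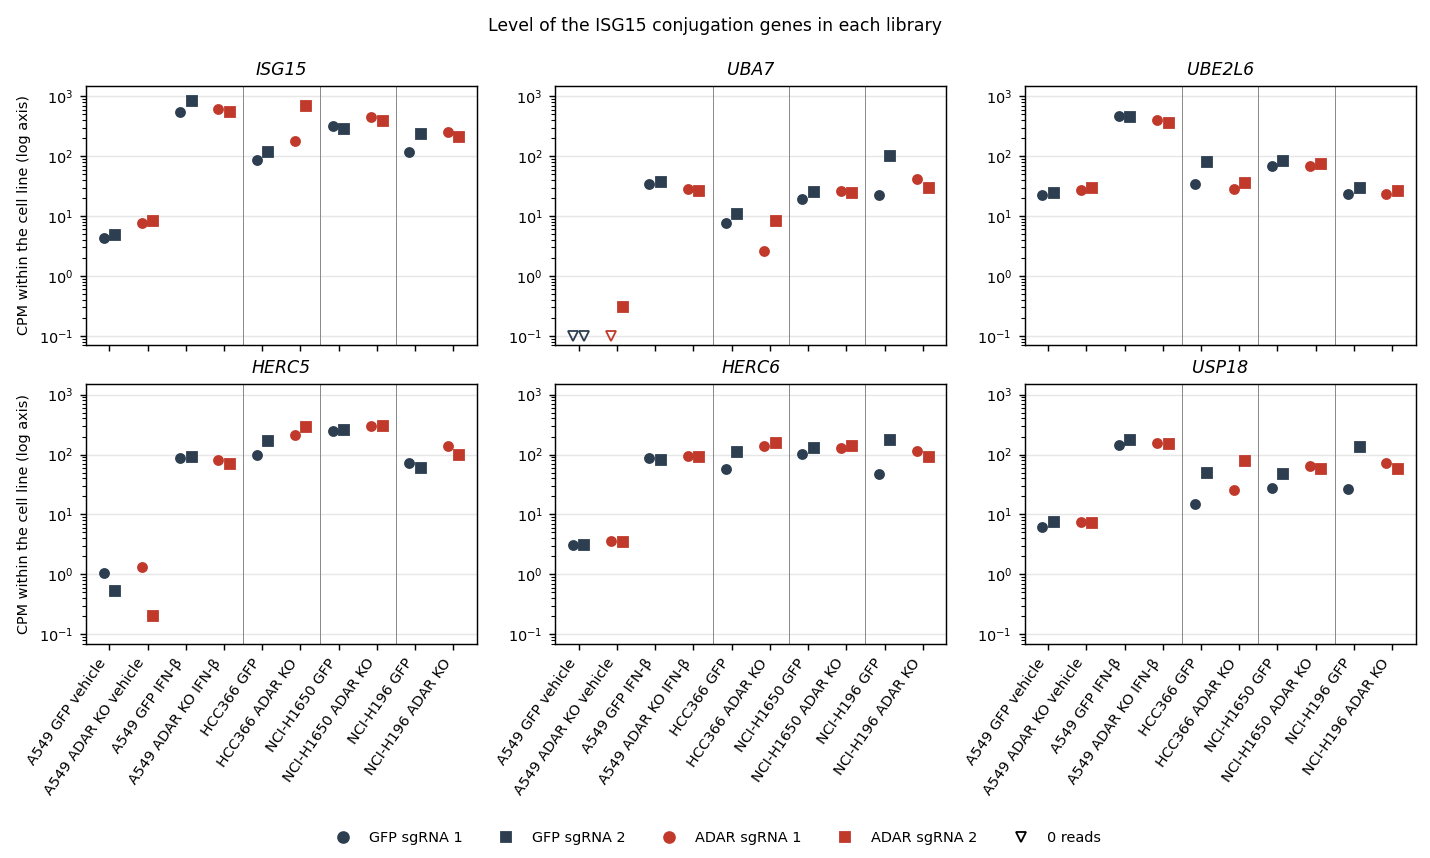
CPM after TMM scaling within each cell line (log axis) of the 6 genes in each of the 20 libraries, with circles for sgRNA 1, squares for sgRNA 2, dark blue for GFP, red for ADAR KO and open triangles for 0 reads. A549 with vehicle lies lowest for ISG15, UBA7, HERC5, HERC6 and USP18, from 0 reads of UBA7 to 8.34 CPM of ISG15, and NCI-H196 GFP sgRNA 2, with 50 reads on these genes, stands above GFP sgRNA 1 for all but HERC5.

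Without added interferon, the ADAR1-dependent cell lines already expressed the system, and its parts did so to different degrees. For comparisons between lines the counts of all 20 libraries were scaled together and fitted together. Against A549 *GFP* with vehicle, 6 of 6 members were higher in HCC366 *GFP* (24.2% of all genes were called higher) and in NCI-H1650 *GFP* (27.5%), and 5 of 6 in NCI-H196 *GFP* (30.2%). With background shares this large, the sizes say more than the counts. Without HCC366 GFP sg2 the count of HCC366 was 4, with *UBE2L6* at 0.11 (adjusted p = 0.841) and *USP18* at 0.63 (adjusted p = 0.447) on the log2 scale no longer called. A549 differed from these lines also in that it had received vehicle, and line and treatment cannot be told apart here. A bulk library does not tell more expressing cells from more RNA per cell.

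*ISG15* averaged 5.71 ± 0.61 CPM (SD, n = 2 sgRNAs, on the common scale) in A549 with vehicle, 95.5 ± 22.8 CPM in HCC366, 135 ± 46.0 CPM in NCI-H196, 269 ± 26.3 CPM in NCI-H1650 and 833 ± 245 CPM in A549 with IFN-β. Of these steps only HCC366 to NCI-H196 did not pass the test (log2 difference 0.19 ± 0.36, adjusted p = 0.705). The mean of *UBA7* was 52.9-fold higher in HCC366 and 121-fold higher in NCI-H1650 than the floor of A549 with vehicle. In NCI-H196 *UBA7* was 119.7-fold over this floor by GFP sg1 alone, and the mean with the shallow library and its 7 reads would give 283-fold. *UBE2L6* behaved otherwise. Its level was 20.6 ± 0.44 CPM in NCI-H196, 28.9 ± 2.21 CPM in A549 with vehicle, 53.4 ± 30.1 CPM in HCC366 and 68.0 ± 7.73 CPM in NCI-H1650, all far under the 559 ± 21.6 CPM of IFN-β-treated A549. NCI-H196 and A549 with vehicle did not differ beyond their error (−0.51 ± 0.27, adjusted p = 0.107), nor did HCC366 and NCI-H1650 (0.26 ± 0.23, adjusted p = 0.394).

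Against IFN-β-treated A549, neither ligase was called lower in HCC366 or NCI-H1650. Both were called lower in NCI-H196, although its mean *HERC6* level was above that of HCC366. The HCC366 libraries had 52.2 and 103 CPM of *HERC6*, and with a library left out the log2 difference ranged from −1.02 to −0.02. A lower *HERC6* level in HCC366 is therefore not excluded. *HERC5* was at 0.971 ± 0.43 CPM in A549 with vehicle, 52.5 ± 15.1 CPM in NCI-H196, 106 ± 3.83 CPM in A549 with IFN-β, 126 ± 48.3 CPM in HCC366 and 224 ± 1.20 CPM in NCI-H1650. NCI-H1650 *GFP* cells therefore held more *HERC5* mRNA than A549 cells given IFN-β, by 1.07 ± 0.22 on the log2 scale (adjusted p = 8.02e-05), whereas the HCC366 libraries, one below and one above the treated A549 libraries, differed from them by 0.27 ± 0.22 (adjusted p = 0.315, 95% interval −0.18 to 0.72). *HERC6* was at 3.75 ± 0.10 CPM in A549 with vehicle, 77.8 ± 36.2 CPM in HCC366, 83.6 ± 59.3 CPM in NCI-H196, 102 ± 13.8 CPM in NCI-H1650 and 102 ± 3.66 CPM in A549 with IFN-β. The difference from IFN-β-treated A549 was 0.01 ± 0.21 in NCI-H1650 (adjusted p = 1, 95% interval −0.42 to 0.43) and −0.32 ± 0.22 in HCC366 (adjusted p = 0.231, 95% interval −0.77 to 0.13). *USP18* was at 8.36 ± 1.20 CPM in A549 with vehicle, 29.7 ± 22.8 CPM in HCC366, 33.3 ± 11.7 CPM in NCI-H1650, 58.7 ± 50.2 CPM in NCI-H196 and 197 ± 27.5 CPM in A549 with IFN-β, and no pair among the 3 dependent lines differed in it.

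Against IFN-β-treated A549 *GFP*, then, 4 members were called lower in HCC366 (27.1% of all genes), 4 in NCI-H1650 (26.9%) and all 6 in NCI-H196 (28.3%). The 4 of HCC366 and of NCI-H1650 were *ISG15*, *UBA7*, *UBE2L6* and *USP18*. The log2 differences of *UBE2L6* were −3.29 ± 0.23 (HCC366), −3.04 ± 0.22 (NCI-H1650) and −4.78 ± 0.30 (NCI-H196), and those of *USP18* were −2.56 ± 0.32, −2.56 ± 0.30 and −2.91 ± 0.39. In NCI-H196 the calls of *UBA7* (−0.98 ± 0.29, adjusted p = 0.00446) and *HERC6* (−1.11 ± 0.27, adjusted p = 0.000705) rested on GFP sg1, and the mean of *UBA7* was 46.4 CPM in NCI-H196 against 42.8 CPM in treated A549, the opposite order. Without GFP sg1 they were 0.75 and 0.29, and *HERC5* and *USP18* were no longer called, with 2 members called instead of 6. Among the dependent lines, 3 members differed between NCI-H1650 and HCC366 (41% of all genes in either direction), 4 between NCI-H196 and HCC366 (43.2%) and 4 between NCI-H196 and NCI-H1650 (46.7%). With such shares among all genes, these counts say little about the members. *HERC5* and *UBE2L6* were lowest in NCI-H196 by these tests, and *ISG15* and *HERC5* were highest in NCI-H1650. *HERC6* was also called lower in NCI-H196 than in HCC366 (−0.79 ± 0.28, adjusted p = 0.0209) and NCI-H1650, but against HCC366 the fitted sign, which weights the deep library, goes against the means of 83.6 and 77.8 CPM. Without GFP sg1 the *HERC6* differences turned, to 0.62 against HCC366 and 0.29 against NCI-H1650.

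**Figure D2:**
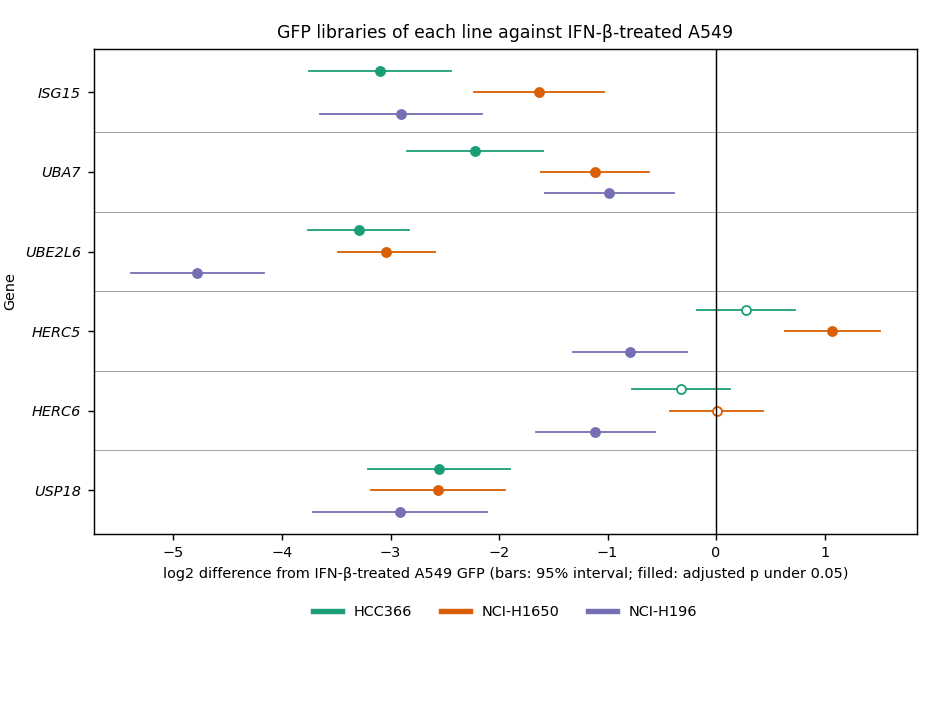
Log2 difference between the GFP libraries of each ADAR1-dependent cell line (n = 2 per line) and the IFN-β-treated A549 GFP libraries (n = 2), with 95% intervals and filled points where the adjusted p is under 0.05. HERC5 of NCI-H1650 lies at 1.07, HERC5 of HCC366 and HERC6 of HCC366 and NCI-H1650 have intervals that cover 0, and UBE2L6 lies at −3.04 or lower in all 3 lines.

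Levels of different genes were compared per length, as RPKM (CPM divided by the exon length in kilobases). In A549 with vehicle, *UBE2L6* made up most of the 6 genes' RPKM, at 60.0% and 59.3% in the *GFP* libraries, and *ISG15* made up 27.6% and 28.4%. After IFN-β the order turned, to 67.3% and 76.0% for *ISG15* and 24.6% and 17.3% for *UBE2L6*. In the 6 *GFP* libraries of the dependent lines *ISG15* was also the largest, at 56.0% to 76.3%, but *UBE2L6* held only 3.72% to 15.8% and *HERC5* 3.22% to 14.6%, where *HERC5* held 1.92% and 1.50% in IFN-β-treated A549. The RPKM ratio of *HERC5* to *UBE2L6*, ligase to conjugating enzyme, was 0.0782 and 0.0870 in IFN-β-treated A549 *GFP* libraries. In the *GFP* libraries of the dependent lines it was 0.926 and 1.23 (HCC366), 0.866 and 1.35 (NCI-H196) and 1.32 and 1.54 (NCI-H1650), every value above both of A549. The ratio of *ISG15* to its protease *USP18* was 3.15 and 3.32 in A549 with vehicle and 17.6 and 22.0 with IFN-β, so the modifier gained on the protease, and it ranged from 8.40 to 54.3 in the *GFP* libraries of the dependent lines, which did not separate from treated A549. NCI-H196 GFP sg2 set the lowest values of several of these ranges from few reads. Its *UBE2L6* share of 3.72%, its *HERC5* share of 3.22% and its ratio of 0.866 came from 4 *HERC5* and 2 *UBE2L6* reads. Its *ISG15* to *USP18* ratio of 8.40 came from 16 and 9 reads. These ratios are descriptions without a test.

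**Figure D3:**
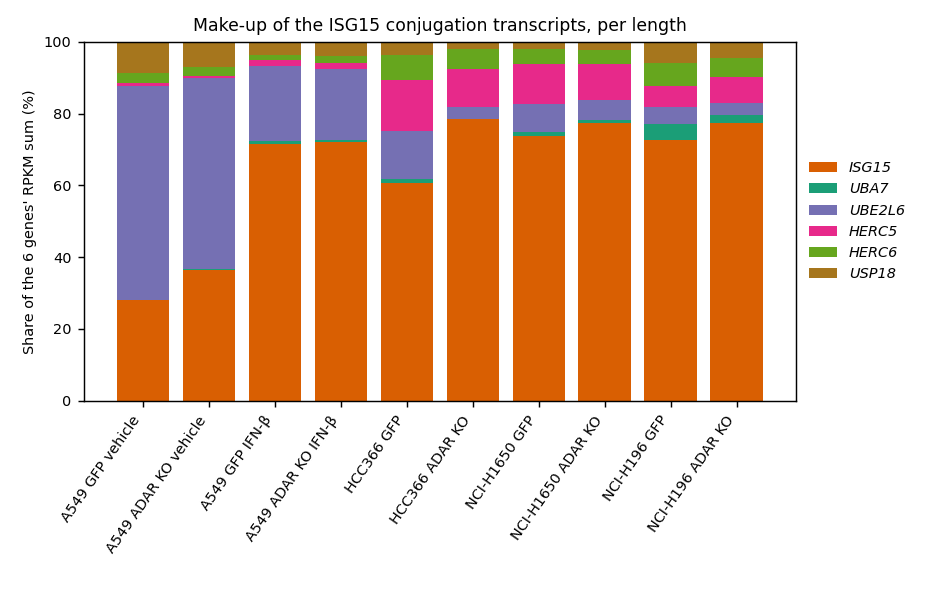
Share (%) of each of the 6 genes in their summed RPKM, as the mean of the 2 libraries of each condition. UBE2L6 fills 59.7% of the bar in A549 GFP with vehicle and ISG15 71.6% with IFN-β, and HERC5 is wider in the dependent lines, up to 14.1% in HCC366 GFP, than in treated A549 GFP (1.71%).

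After *ADAR* KO, *ISG15* was called higher in NCI-H1650 and NCI-H196 and not in HCC366, while the activating and conjugating enzymes passed the test in none of the 3 lines. In HCC366, *ISG15* was at 86.0 and 119 CPM in *GFP* and at 183 and 703 CPM in *ADAR* KO libraries, so the groups did not overlap, and *ADAR* sg2 stood far above *ADAR* sg1. The log2 fold change was 2.10 ± 0.57 (adjusted p = 0.122). Without *ADAR* sg2, the library with 85.6% non-unique alignments, it was 0.82. *HERC5* was at 99.2 and 171 CPM against 213 and 287 CPM (0.88 ± 0.37, adjusted p = 0.258) and *HERC6* at 56.5 and 111 CPM against 139 and 156 CPM (0.81 ± 0.39, adjusted p = 0.31), again without overlap. With 2 libraries against 2, a lack of overlap is only a description, here and below, since its share among all genes was not counted. *USP18* overlapped between groups, at 14.7 and 49.0 CPM against 25.4 and 77.6 CPM. Both upstream enzymes had values that overlapped between groups. *UBA7* was at 7.75 and 10.9 CPM against 2.62 and 8.41 CPM (3 to 38 reads per library), and *UBE2L6* at 34.9 and 79.9 CPM against 28.0 and 36.2 CPM (−0.86 ± 0.45, adjusted p = 0.345). Thus 0 of the 6 genes were called in HCC366 (1.2% of all genes were called higher), with 2 at an unadjusted p under 0.05, as were 18.1% of all genes, and 1, *ISG15*, called by DESeq2. The count is not firm: a fit of all 20 libraries called 4, *ISG15*, *HERC5* and *HERC6* higher and *UBE2L6* lower.

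In NCI-H1650, 2 of 6 members rose (6.18% of all genes). *ISG15* went from 322 and 286 CPM to 453 and 389 CPM, a log2 fold change of 0.47 ± 0.10 (adjusted p = 0.00139), with both KO libraries above both controls. *USP18* went from 28.0 and 47.5 CPM to 63.9 and 57.9 CPM (0.70 ± 0.15, adjusted p = 0.00112), also without overlap, although the difference between the *GFP* libraries was larger than that from GFP sg2 to the lower KO library. *HERC5* was at 249 and 257 CPM against 305 and 303 CPM (0.27 ± 0.10, adjusted p = 0.0932) and *HERC6* at 103 and 128 CPM against 129 and 137 CPM (0.21 ± 0.11, adjusted p = 0.28). *UBA7* (19.2 and 25.6 against 26.2 and 24.1 CPM) and *UBE2L6* (69.9 and 83.8 against 67.8 and 75.2 CPM) overlapped. Without GFP sg1, GFP sg2 or *ADAR* sg1, 1 member was called. The fit of all 20 libraries called neither *ISG15* (adjusted p = 0.774) nor *USP18* (adjusted p = 0.534).

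In NCI-H196, 4 of 6 members were called higher (10.3% of all genes), but the *GFP* group is in effect 1 library. The fit of this line also took the spread of each gene wholly from a trend over all genes. Its p-values therefore do not measure a gene's own spread between libraries. *ISG15* was at 118 CPM in GFP sg1 and 235 CPM in GFP sg2 (16 reads), against 250 and 213 CPM after *ADAR* KO. The fitted log2 fold change, which weights the deep library, was 0.89 ± 0.11 (adjusted p = 5.72e-15). *HERC5* was at 72.6 and 58.6 CPM (4 reads in the second) against 137 and 99.99 CPM, without overlap (0.58 ± 0.12, adjusted p = 3.58e-05). *HERC6* was at 47.8 and 176 CPM (12 reads) against 115 and 92.2 CPM (0.96 ± 0.13, adjusted p = 3.75e-11), and *USP18* at 26.7 and 132 CPM (9 reads) against 72.1 and 57.2 CPM (1.10 ± 0.16, adjusted p = 4.81e-10), so for both the shallow control library was the highest of the 4. *UBA7* was at 22.5 and 103 CPM (7 reads) against 41.6 and 29.1 CPM, and *UBE2L6* at 23.3 and 29.3 CPM (2 reads) against 23.3 and 26.1 CPM. Without GFP sg1, *ISG15*, *HERC6* and *USP18* were at −0.07, −0.86 and −1.13, and DESeq2, the fit of all 20 libraries and the fits without either *ADAR* library each called 0 members.

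**Figure D4:**
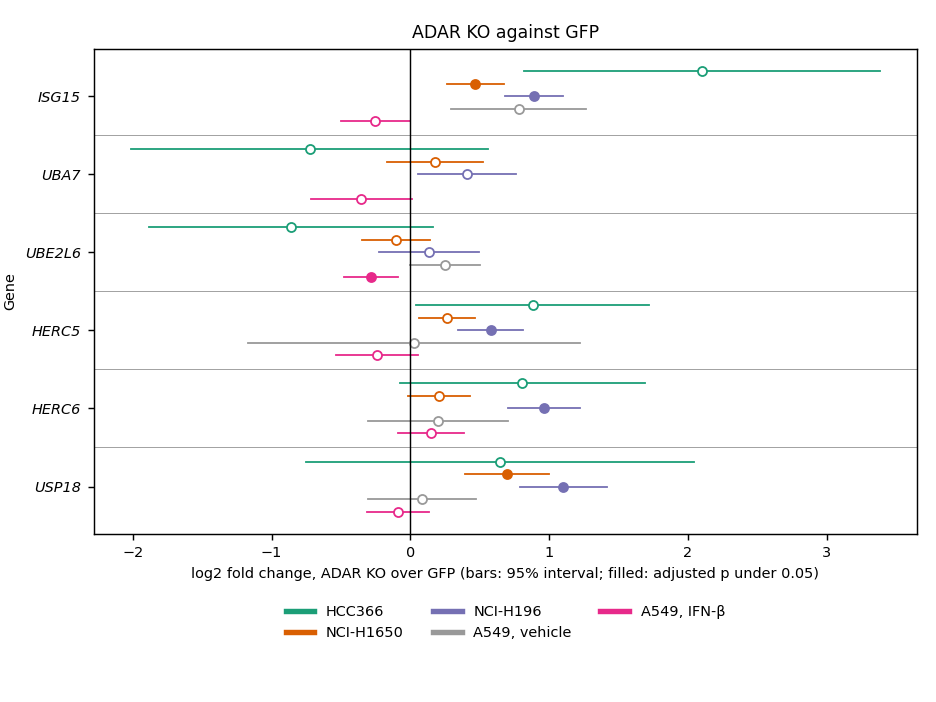
Log2 fold change of ADAR KO over GFP for the 6 genes in the 3 dependent lines and in A549 with vehicle or IFN-β (n = 2 against 2 sgRNAs each), with 95% intervals and filled points where the adjusted p is under 0.05, leaving out UBA7 of A549 with vehicle (0 against 3 reads). ISG15 lies between 0.47 and 2.10 in the dependent lines and at −0.25 in A549 with IFN-β, and the intervals of HCC366 are the widest for every gene but HERC5, whose interval is widest in A549 with vehicle.

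Fitted across the 12 libraries of HCC366, NCI-H1650 and NCI-H196 with the line as a covariate, *ISG15* (1.07 ± 0.29, adjusted p = 0.038) and *HERC5* (0.57 ± 0.16, adjusted p = 0.047) were called higher, 2 of 6 against 4.28% of all genes. *USP18* was at 0.68 ± 0.28 (adjusted p = 0.15), *HERC6* at 0.51 ± 0.20 (adjusted p = 0.135), *UBE2L6* at −0.34 ± 0.20 (adjusted p = 0.32) and *UBA7* at 0.03 ± 0.24 (adjusted p = 0.973). Both calls lie close to the threshold: leaving out 1 library gave 0 to 4 called members, and neither gene was called without HCC366 GFP sg1, HCC366 GFP sg2, NCI-H196 GFP sg1, NCI-H196 *ADAR* sg1 or NCI-H196 *ADAR* sg2.

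In A549 with vehicle, *ADAR* KO called 0 of 6 members (0.123% of all genes in either direction), with 2 at an unadjusted p under 0.05, as were 4.16% of all genes, and 0 called by DESeq2. *ISG15* was at 7.80 and 8.34 CPM in KO against 4.35 and 4.91 CPM in *GFP* libraries, above them without overlap (0.78 ± 0.24, adjusted p = 0.675). The same gene was called (adjusted p = 0.0248) when low-count genes were kept. *UBA7* had 0 and 3 reads. *HERC5* was at 1.34 and 0.203 CPM (11 and 2 reads), *HERC6* at 3.54 and 3.46 CPM, *USP18* at 7.56 and 7.12 CPM and *UBE2L6* at 26.8 and 29.3 CPM, with adjusted p of 0.998 or 0.999.

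IFN-β in A549 *ADAR* KO cells raised all 6 genes too (15.5% of all genes were called higher). *ISG15* reached 603 and 550 CPM (6.15 ± 0.17), *UBE2L6* 397 and 361 CPM (3.75 ± 0.11), *HERC5* 80.5 and 68.9 CPM (6.66 ± 0.27), *HERC6* 93.4 and 92.1 CPM (4.73 ± 0.17) and *USP18* 155 and 150 CPM (4.38 ± 0.15). *UBA7* reached 28.8 and 26.7 CPM, 167-fold (57.1 to 809-fold by the counting interval) over the 3 reads with vehicle. Relative to IFN-β-treated *GFP* cells, only *UBE2L6* was called, and it was lower (−0.28 ± 0.10, adjusted p = 0.0403, against 6.19% of all genes lower). Its call was lost in the fit of all 20 libraries (adjusted p = 0.384) and without GFP sg1 or *ADAR* sg2 with IFN-β. For *ISG15* the *GFP* libraries with IFN-β, 546 and 826 CPM, lay to either side of both KO libraries (−0.25 ± 0.12, adjusted p = 0.157).

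The interaction asks whether the response to IFN-β differed between *ADAR* KO and *GFP* cells, and 2 members were called lower in it (0.977% of all genes). For *ISG15* it was −1.03 ± 0.27 (adjusted p = 0.019), where KO cells had higher values than *GFP* cells with vehicle and a lower mean with IFN-β, neither called on its own. For *UBE2L6* it was −0.54 ± 0.16 (adjusted p = 0.0419), with KO libraries above *GFP* with vehicle and below them with IFN-β. *HERC5* (−0.26 ± 0.61), *HERC6* (−0.05 ± 0.27) and *USP18* (−0.17 ± 0.22) were not called, and the value of *UBA7* rests on 0 against 3 reads and is not given. DESeq2 called only *UBE2L6*, and the fit of all 20 libraries called neither gene (adjusted p = 0.452 and 0.518). The count was 0 without GFP sg1, GFP sg2 or *ADAR* sg2 with vehicle and without *ADAR* sg2 with IFN-β.

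Whether the KO effect differed between lines was tested in the fit of all 20 libraries. The KO effect on *ISG15* was larger in HCC366 than in NCI-H1650, by 1.55 ± 0.42 on the log2 scale (adjusted p = 0.044, 1 of 6 members against 1.23% of all genes), and without HCC366 *ADAR* sg2 the difference was 0.27 (adjusted p = 0.858). The call was also lost without HCC366 GFP sg2 and without any 1 of the NCI-H1650 libraries. The mean effect of the 3 dependent lines exceeded that in IFN-β-treated A549 for *ISG15* by 1.40 ± 0.34 (adjusted p = 0.0269, 1 of 6 members against 0.948% of all genes). This call was lost without A549 GFP sg2, *ADAR* sg1 or *ADAR* sg2 with IFN-β, and without NCI-H196 GFP sg1 or *ADAR* sg2. For *HERC5* this difference was 0.86 ± 0.25 (adjusted p = 0.0605) and for *USP18* 0.88 ± 0.34 (adjusted p = 0.144). Against A549 with vehicle the difference for *ISG15* was 0.33 ± 0.44 (adjusted p = 0.837, 95% interval −0.58 to 1.23), so a difference was not detectable.

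Of 8 other enzymes linked to ISG15, only the ligase *TRIM25* rose with IFN-β in A549 *GFP* cells (2.13 ± 0.10, adjusted p = 2.9e-17), *USP13*, a protease that reacts with ISG15 probes, fell (−0.47 ± 0.14, adjusted p = 0.034), and the list's median was 0.00, as was that of all genes. With *ADAR* KO, 0 of these 8 were called in HCC366, NCI-H1650 or A549 with vehicle. In NCI-H196, *TRIM25* rose (0.29 ± 0.10) and *USP14* (−0.34 ± 0.10) and *USP13* (−0.34 ± 0.10) fell, against 10.3% of all genes higher and 7.5% lower. In A549 with IFN-β, *USP21* (0.49 ± 0.16) and *ARIH1* (0.44 ± 0.11) rose and *USP5* fell (−0.32 ± 0.11), against 10.8% of all genes higher and 6.19% lower. Of 21 described ISG15 substrates, 7 rose and 0 fell with IFN-β in A549 *GFP* cells (4.39% of all genes higher and 1.31% lower), led by the antiviral GTPase *MX1* (10.85 ± 0.19), the RNA-binding *IFIT1* (9.63 ± 0.17) and the RNA sensor *IFIH1* (7.64 ± 0.19), with a list median of 0.12. In HCC366 0 of the 21 were called after *ADAR* KO, 4 rose and 1 fell in NCI-H1650 (6.18% of all genes higher and 2.42% lower), and 5 rose and 0 fell in NCI-H196 (10.3% and 7.5%). Among the partners of USP18 in receptor feedback and the parts of the ISGF3 complex, *STAT2* (3.51 ± 0.11), which USP18 binds to reach the receptor, and *IRF9* (2.98 ± 0.45) rose with IFN-β in A549 *GFP* cells. *SKP2*, a subunit of the ubiquitin ligase that targets USP18, fell after *ADAR* KO in NCI-H1650 (−0.73 ± 0.12), NCI-H196 (−0.51 ± 0.11) and IFN-β-treated A549 (−0.51 ± 0.13), and across the 3 dependent lines (−0.84 ± 0.15, adjusted p = 0.0027).

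Across the 10 condition means, the genes whose profile was most like the mean profile of the 6 members were *PARP12* (Pearson r = 0.993), *OAS2* (0.985), *IFIT1* (0.977), *TRANK1* (0.972) and *IFIT3* (0.969), all outside the system. Among the members themselves *ISG15* had 0.989, *USP18* 0.942, *HERC6* 0.933, *UBA7* 0.928, *HERC5* 0.886 and *UBE2L6* 0.625. Each member is itself part of that mean profile, which raises its r. The members' values are therefore not comparable with those of the genes outside the system. These 10 points share lines and libraries, and the 4 A549 conditions span most of the range, so the values are descriptions. *HERC5* and *HERC6* had the highest Pearson correlation of any member pair (r = 0.984), and *UBE2L6* with *HERC5* the lowest (0.269). The order depended on the measure: by Spearman's rho these pairs had 0.794 and 0.358, *ISG15* with *USP18* was highest (0.903) and *UBA7* with *HERC5* lowest (0.127). *PARP12* was at 24.8 CPM in A549 *GFP* with vehicle, 245 CPM with IFN-β and 92.0 to 137 CPM in the *GFP* cells of the dependent lines.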

How the data were processed

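RNA was isolated with Qiagen RNeasy kits, depleted of rRNA and made into directional libraries by the authors, who aligned reads to hg19 with STAR and deposited HTSeq counts per gene for each of the 20 libraries. Versions, annotation release and strand setting are not given in the sources used here. Lines that name no gene (reads not unique, ambiguous or outside features) were left out of library sizes, and alignments that were not unique made up 22.5% to 85.6%. Symbols were matched for 55727 of 58233 identifiers, which hold 97.4% of the counts. The members and gene lists were chosen with earlier results of these data known.

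Counts were tested with edgeR 4.0.16 in R 4.3.3 (quasi-likelihood F-test, TMM, filterByExpr by group, Benjamini-Hochberg adjustment, threshold 0.05) in 1 fit per cell line, 1 fit over HCC366, NCI-H1650 and NCI-H196 together (12 libraries, line as covariate), and 1 fit of all 20 libraries for levels and KO effects between lines. Genes tested numbered 11135 (HCC366), 14530 (NCI-H1650), 14094 (NCI-H196), 15449 (A549), 16538 (the 3 lines) and 19523 (all libraries). Reads on genes numbered 62679 to 19520189 per library, and intervals are 95%. RPKM used the union exon length of GENCODE genes on GRCh37. Alternatives were DESeq2 1.42.0, its size factors, no filter, replicate blocks, GC and length offsets, all libraries in 1 fit and each library left out. Scripts were tested on simulated data. No pair of count tables was identical. Results for some genes of the lists are not reported here. Named genes of each list were at most the 3 called ones with the largest log2 fold change per comparison, and the 5 genes most like the members' mean profile.

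Libraries of *GFP* and *ADAR* with the same number held different sgRNAs, whereas A549 libraries with vehicle and with IFN-β shared theirs. The main fit did not block on the sgRNA. Deviations of libraries with the same number correlated at −0.25 to −0.00 between groups.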

Additional observations from a re-analysis of the deposited data

Results flagged for a closer look

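For *ISG15* the response to IFN-β in A549 differed between *ADAR* KO and *GFP* cells by −1.03 ± 0.27 on the log2 scale (interaction term, adjusted p = 0.019). For *UBE2L6* the same interaction was −0.54 ± 0.16 (adjusted p = 0.0419). The effect of *ADAR* KO on *ISG15* differed between HCC366 and NCI-H1650 by 1.55 ± 0.42 (adjusted p = 0.044), with HCC366 *ADAR* sg2 at 703 CPM and *ADAR* sg1 at 183 CPM. The mean effect of *ADAR* KO on *ISG15* in the 3 ADAR1-dependent cell lines exceeded that in IFN-β-treated A549 by 1.40 ± 0.34 (adjusted p = 0.0269). Each of these calls was lost when at least 1 single library was left out, and the part of depth or alignment in them was not tested.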

How the results depend on the processing

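The 6 members kept their direction and call for IFN-β in A549 *GFP* and *ADAR* KO cells under every alternative tried. Members called with *ADAR* KO in HCC366 were 0 as reported, 1 with no filter, DESeq2, the replicate block by sgRNA number, the crossed block or GC and length offsets, 4 with either block plus these offsets or with all 20 libraries in 1 fit, and 0 to 5 with a library left out. The crossed pairing was chosen after seeing the data. In NCI-H1650 the count was 1 with DESeq2, 0 with all 20 libraries and 1 to 2 with a library left out. In NCI-H196 it was 0 with DESeq2, the replicate block or all 20 libraries, and 0 to 5 with a library left out. In A549 with vehicle it was 1 with no filter. In A549 with IFN-β it was 0 with no filter, the replicate block or all 20 libraries, and 0 to 1 with a library left out. For the interaction it was 1 with no filter, DESeq2 or either replicate block, 0 with all 20 libraries and 0 to 2 with a library left out. Across the 3 lines it was 1 with the replicate block and 0 to 4 with a library left out. Between *GFP* and *ADAR* the sgRNA numbers do not pair the samples, so a KO call lost under the block is not read as a weaker effect. In A549 the libraries with vehicle and with IFN-β share their sgRNA. The interaction had 1 member called under the block by sgRNA against 2 in the main fit, which makes that result less firm.

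For levels between lines, with a library left out the count was 4 to 6 for HCC366 against A549 with vehicle, 2 to 6 for NCI-H196 against IFN-β-treated A549, 2 to 5 for NCI-H1650 against HCC366, 1 to 4 for NCI-H196 against HCC366 and 1 to 4 for NCI-H196 against NCI-H1650. The replicate block gave 1 for NCI-H1650 against HCC366 and 2 for NCI-H196 against HCC366, and DESeq2 gave 2 for NCI-H196 against NCI-H1650. For differences of the KO effect, HCC366 against NCI-H1650 gave 0 with DESeq2 or its size factors and 0 to 2 with a library left out, HCC366 against NCI-H196 gave 0 to 2, the mean against A549 with vehicle gave 0 to 2, and the mean against A549 with IFN-β gave 0 with DESeq2 and 0 to 4 with a library left out.

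Signs turned for members that were mostly not called. In NCI-H196 KO, DESeq2 gave −0.40 for *UBA7*, −0.00092 for *UBE2L6* and −0.12 for *USP18*, and the replicate block gave −0.013 for *UBE2L6*. Across lines *UBA7* was −0.16 with DESeq2 and −0.058 with the replicate block. *HERC6* of NCI-H1650 against IFN-β-treated A549 was −0.10 with no filter. With a library left out, log2 fold changes ranged from −0.50 to 1.80 for *USP18* in HCC366 and from −0.012 to 0.36 for *UBA7* in NCI-H1650. In NCI-H196 they ranged from −0.069 to 0.91 for *ISG15*, −1.71 to 0.84 for *UBA7*, −0.18 to 0.17 for *UBE2L6*, −0.86 to 1.01 for *HERC6* and −1.13 to 1.22 for *USP18*. In A549 with vehicle the range was −1.76 to 0.91 for *HERC5* and −0.013 to 0.24 for *USP18*, with IFN-β −0.52 to 0.079 for *ISG15* and −0.21 to 0.060 for *USP18*, for the interaction −1.14 to 1.52 for *HERC5*, and across lines −0.25 to 0.15 for *UBA7*. Against IFN-β-treated A549 the range was −0.27 to 0.54 for *HERC5* in HCC366, −0.15 to 0.11 for *HERC6* in NCI-H1650, and −1.15 to 0.75 for *UBA7* and −1.31 to 0.29 for *HERC6* in NCI-H196. For *HERC6*, NCI-H196 minus HCC366 ranged from −1.09 to 0.62 and NCI-H196 minus NCI-H1650 from −1.29 to 0.29. An arm left with 1 library is assumed to vary like the others. Apart from the library left out, the cause was not tested. NCI-H196 GFP sg2 had 62679 reads on genes and 50 on the 6 members, which limits every value of that control group.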

Other observations

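Of 11 enzymes paralogous to the ISG15 enzymes and outside the system, 1 rose with IFN-β in A549 *GFP* cells (*UBA6*, which activates ubiquitin and FAT10, 0.45 ± 0.11) and 2 fell (*HERC1*, −0.41 ± 0.11, and *HERC2*, −0.37 ± 0.10), where 4.39% of all genes were called higher and 1.31% lower, with a list median of 0.03 against 0.00 over all genes. After *ADAR* KO, 0 of the 11 were called in HCC366 or NCI-H1650, *HERC3* fell in NCI-H196 (−0.72 ± 0.14), and *HERC4* rose in A549 with IFN-β (0.70 ± 0.11).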
